A study of Mus musculus with 12 samples.

Results

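The SMC#2 line, made from small-cell lung cancer (SCLC) cells that metastasize (SMC), was set against its partner line Non-SMC#2, made from non-metastasizing cells (non-SMC), with 3 RNA sequencing libraries of each. Of 24458 gene rows in the series table, 12519 had at least 1 FPKM in 3 or more of these 6 libraries and were compared. FPKM is a count of sequenced fragments divided by the length of the transcript and by the size of the library, so levels are given per length and as a share of a library. The SMC#2 line came from cells with high NCAM and little or no CD44 on their surface and grew as floating spheres. The Non-SMC#2 line came from cells with low NCAM and high CD44 and grew attached to the dish. All cells carried the Rb1 L/L and Trp53 L/L alleles, deleted by a Cre virus given through the windpipe of mice of mixed background (C57Bl/6, Balb-c and S129). The Cre stood under the CMV promoter, which is active in many cell types, so the cell in which a tumor began was not fixed by the design. Both lines were cultured untreated in RPMI1640 with serum. The sample labels and the column names, which give these lines, were followed, although the study's text lists this deposit as SMC cells with a control or an active TAZ mutant, so what the groups are rests on the labels alone. The other pair of the series, SMC#1 and Non-SMC#1, had the same alleles, sorting gates and number of libraries, and made 12 libraries in all. Each side of the comparison was 1 line, and nothing in the labels says that its libraries came from separate cultures. The p-values below thus rest on how much repeat libraries of a line varied, a spread that may be technical.

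SCLC is a neuroendocrine tumor of the airway. Most SCLC cells are driven by proneural transcription factors such as NEUROD1 and carry the secretory granules, synaptic vesicle proteins and ion channels of nerve and endocrine cells. A smaller share of tumor cells has lost these features, adheres, and makes extracellular matrix, and in such cells the Hippo pathway effectors YAP and TAZ (gene Wwtr1) are active. Epithelial genes, which encode keratins, cadherin junctions and claudins, often stay on in neuroendocrine SCLC cells and are commonly silenced when carcinoma cells take on a mesenchymal form.

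The libraries of SMC#2 held about 29500000 to 37200000 mapped fragments and those of Non-SMC#2 about 23400000 to 35500000, estimated from the spacing of low values because the table held no counts. Spearman correlations across all rows compared were 0.995 to 0.997 within SMC#2, 0.981 to 0.991 within Non-SMC#2 and 0.611 to 0.626 between the lines. The FPKM values summed to 289158 to 314163 in SMC#2 libraries and to 363103 to 427958 in Non-SMC#2 libraries. A value of 0 can be an estimate that failed, since 4 of 77 ribosomal protein rows were at 0 in all 6 libraries and 4 more in some of them. Such genes are called listed at 0, and a range stands in place of mean ± SD (n = 3 libraries) wherever 1 library of a line was at 0.

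The genes behind the sort were examined first. Cd44, which encodes the hyaluronan receptor used in the gate, had 0.176, 0.172 and 0.076 FPKM in SMC#2, against 88.5, 86.7 and 82.6 FPKM in Non-SMC#2. The lines were far apart, in the direction of the gate. Ncam1, which encodes the neural adhesion molecule of the other gate, went against its label at the RNA level, with 32.5, 35.8 and 32.1 FPKM in SMC#2, against 41, 46.6 and 49 FPKM in Non-SMC#2. The 3 Non-SMC#2 libraries were the higher ones, by a log2 difference of -0.43 (SE 0.1, limma adjusted p = 0.00427), although that line was sorted as NCAM low, but under quantile normalization the difference was -0.13 and did not pass. In the other pair Ncam1 had 37.2 ± 0.601 FPKM in SMC#1 and 50.9 ± 1.51 FPKM in Non-SMC#1. The epithelial surface genes Epcam and Cd24a were higher in SMC#2, with 619.7 ± 73.2 FPKM in SMC#2 and 146 ± 19.1 FPKM in Non-SMC#2 for Cd24a. The deleted genes gave no check of the labels, because their rows include exons outside the deleted part. Rb1 had 3.05 ± 0.175 FPKM in SMC#2 and 0.745 ± 0.00806 FPKM in Non-SMC#2, and Trp53 had 7.42 ± 0.426 FPKM in SMC#2 and 3.36 ± 0.3001 FPKM in Non-SMC#2.

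Markers of other lung cells differed by cell type. None of the 7 club cell and 7 basal cell markers reached the level for testing. Club cell markers summed to 0.894 to 2.57 FPKM in SMC#2 libraries and 0.144 to 0.567 FPKM in Non-SMC#2 libraries, and basal cell markers to 0.598 to 1.63 FPKM in SMC#2 libraries and 2.19 to 2.84 FPKM in Non-SMC#2 libraries. Surfactant gene Sftpc was at 0.482 ± 0.0503 FPKM in SMC#2 and 0 FPKM in Non-SMC#2. Of 11 alveolar type 2 markers 3 were tested, 2 higher and 1 lower in SMC#2. The list summed to 19.5 to 20.4 FPKM in SMC#2 libraries and 10.4 to 15.5 FPKM in Non-SMC#2 libraries. Alveolar type 1 markers summed to 12.5 to 14.7 FPKM in SMC#2 libraries and 84 to 97.9 FPKM in Non-SMC#2 libraries. Tuft cell markers summed to 3.4 to 3.87 FPKM in SMC#2 libraries and 38.3 to 39.1 FPKM in Non-SMC#2 libraries, where Dclk1 averaged 36.6 FPKM. Of 13 leukocyte markers in the table only Cd14 and Cd68 were tested, both lower in SMC#2, while the pan-leukocyte gene Ptprc had 0.0253 ± 0.014 FPKM in SMC#2 and 0.0128 ± 0.0119 FPKM in Non-SMC#2. Fibroblast and pericyte markers moved with the comparison. Of 9 tested, 8 were lower in SMC#2 and 1 (Thy1) was higher, and the 15 markers summed to 2.04 to 3.35 FPKM in SMC#2 libraries against 574 to 810 FPKM in Non-SMC#2 libraries. The defining fibroblast factor Tcf21 had 0 FPKM in SMC#2 and 0 FPKM in Non-SMC#2. In bulk RNA, fewer cells of a type and less RNA per cell cannot be told apart, and the part of such cells in the mesenchymal results below was not tested.

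At a limma Benjamini-Hochberg adjusted p under 0.05 on log2(FPKM + 1), 4584 rows (36.6%) were higher and 5171 rows (41.3%) were lower in SMC#2, together 77.9% of rows compared. The median log2 difference (SMC#2 minus Non-SMC#2) was -0.06. Because so many rows were called, the counts of each gene group below are read against these shares. A gene near 0 in 1 line was tested only if the other line reached the level for testing, so its direction was fixed by that filter. This limit holds for the counts of every gene group with many such members. Rows that were called and differed by at least 2 log2 units, a size chosen after the values were seen, numbered 990 higher (7.91%) and 1175 lower (9.39%). The libraries of the lines did not overlap in 37.8% of rows with SMC#2 above and in 42.5% with SMC#2 below. A group of 98 genes averaged at least 5 FPKM in SMC#2 and was listed at 0 in each Non-SMC#2 library, and 103 genes showed the converse.

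**Figure D1:**
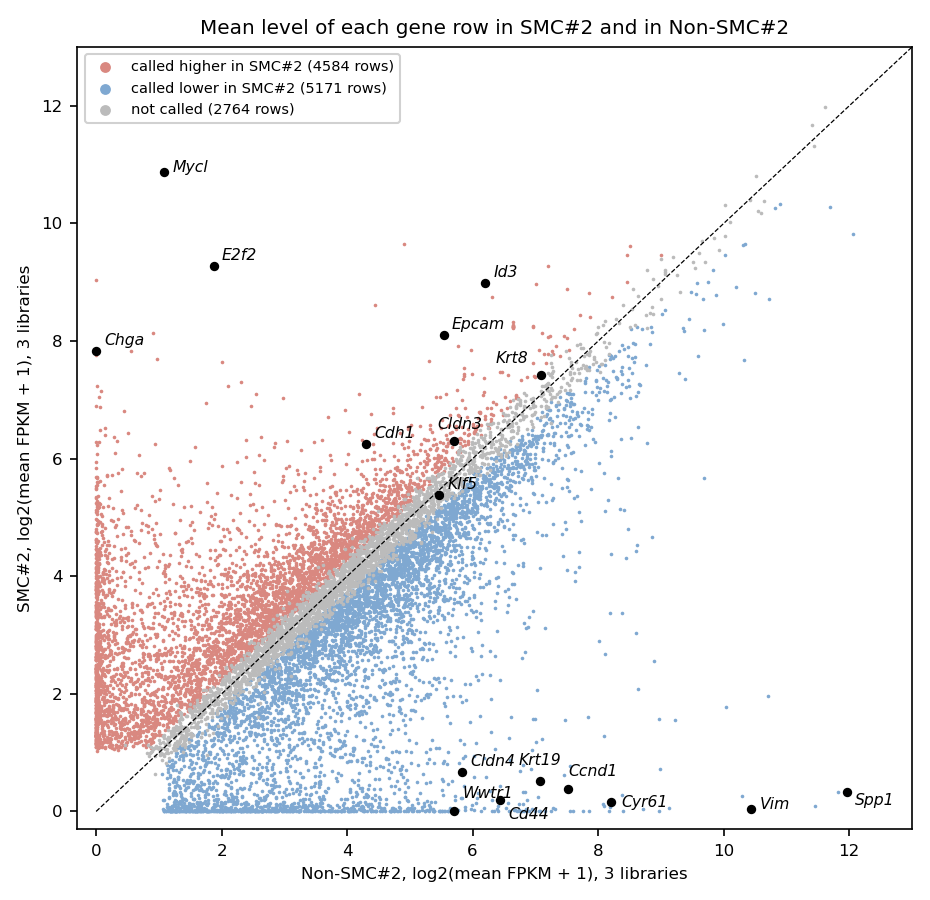
Each point is 1 of 12519 gene rows, with the mean of the 3 Non-SMC#2 libraries on the horizontal axis and the mean of the 3 SMC#2 libraries on the vertical axis, both as log2(FPKM + 1); the dashed line marks equal levels. Rows called higher in SMC#2 (4584) and lower (5171) fill both edges of the plot, with Mycl, Chga and E2f2 high only in SMC#2, and Spp1, Vim, Krt19 and Cldn4 high only in Non-SMC#2, while Krt8, Klf5 and Cldn3 lie near the line.

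The gene farthest above the diagonal was Mycl, which encodes the L-MYC transcription factor and is known as an amplified oncogene of SCLC. It had 1925, 1872 and 1824 FPKM in SMC#2, against 0.896, 1.18 and 1.29 FPKM in Non-SMC#2. All SMC#2 libraries lay far above all Non-SMC#2 libraries, with a log2 difference of 9.79 (SE 0.1, limma adjusted p = 1.92e-10). E2f2, which encodes an activator of S phase genes, came close, with 618, 647 and 586 FPKM in SMC#2, against 2.48, 2.57 and 2.92 FPKM in Non-SMC#2. At the other end stood Spp1, which encodes the secreted adhesive protein osteopontin, with 0.196, 0.31 and 0.258 FPKM in SMC#2, against 4741, 3682 and 3499 FPKM in Non-SMC#2. The lines did not overlap, with a log2 difference of -11.62 (SE 0.13, limma adjusted p = 1.92e-10). Vim, which encodes the mesenchymal intermediate filament vimentin, had 0.0177, 0.0446 and 0.0186 FPKM in SMC#2, against 1505, 1257 and 1385 FPKM in Non-SMC#2. Lgals1, S100a6 and S100a10, abundant cytoplasmic proteins of mesenchymal cells, followed the same direction with log2 differences of -11.49, -11.33 and -10.03.

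**Figure D2:**
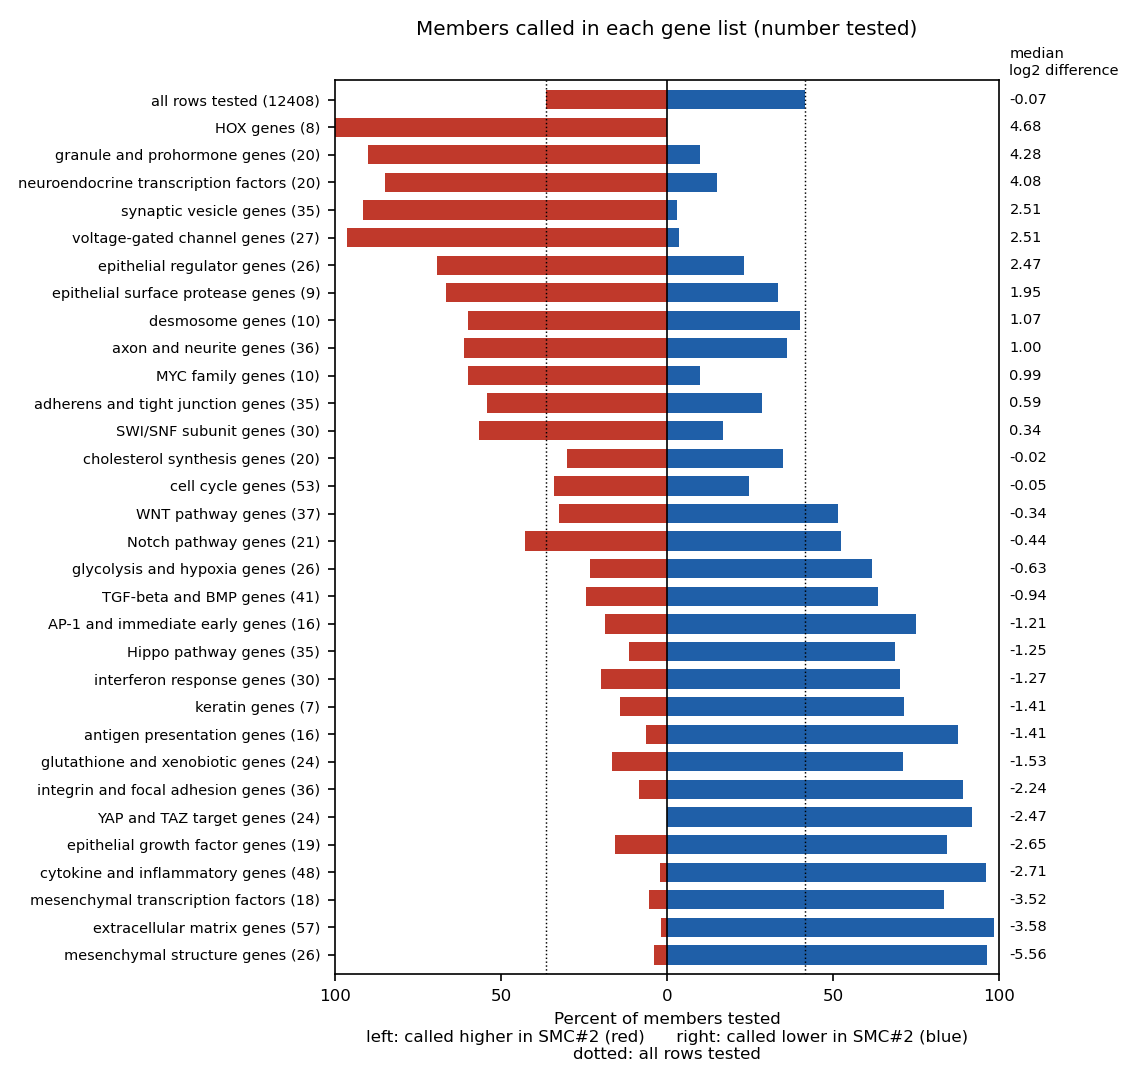
For each gene list (number of members tested in parentheses) the red bar to the left gives the percent of members called higher in SMC#2 and the blue bar to the right the percent called lower; dotted lines mark the shares over all rows tested that had a symbol of their own, and the median log2 difference stands at the right. Neuroendocrine, synaptic and channel lists lie almost wholly on the left, matrix and mesenchymal lists almost wholly on the right, and keratin, junction and desmosome lists have members on both sides.

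Most genes of the neuroendocrine program were higher in SMC#2, while some members kept sizeable levels in Non-SMC#2. The 26 listed neuroendocrine transcription factors summed to 1690 to 1800 FPKM in SMC#2 libraries and 223 to 288 FPKM in Non-SMC#2 libraries. Of 20 neuroendocrine transcription factors tested, 17 were higher and 3 lower in SMC#2, with a median log2 difference of 4.08 against -0.07 over all rows with a symbol of their own. Neurod1, a proneural factor that marks a class of SCLC, had 37.5, 36.2 and 37.7 FPKM in SMC#2, against 0 FPKM in each library of Non-SMC#2. In the other pair it was listed at 0 FPKM in SMC#1, and of the 4 lines SMC#2 alone had a Neurod1 value above 0. Insm1, a zinc finger factor of endocrine cells, had 279.8 ± 23.1 FPKM in SMC#2 and 0.872 ± 0.245 FPKM in Non-SMC#2, and Nkx2-1, the lung lineage factor, had 226 ± 15 FPKM in SMC#2 and 0.473 ± 0.176 FPKM in Non-SMC#2. Further proneural and endocrine factors high in SMC#2 were Sox1 (118 ± 6.22 FPKM), St18 (47.5 ± 2.35 FPKM), Prox1 (33.7 ± 2.07 FPKM), Myt1 (33.2 ± 1.26 FPKM) and Neurog3 (23.8 ± 2.77 FPKM), each at or below 0.1 FPKM in each Non-SMC#2 library. The 3 factors that fell in SMC#2 were Sox2, Sox4 and Rest. Rest encodes the repressor that keeps neuronal genes silent outside the nervous system, and it had 0.0802, 0.0955 and 0.0493 FPKM in SMC#2, against 16, 18.3 and 16.9 FPKM in Non-SMC#2, a log2 difference of -4.07. Sox2, a stem and neural progenitor factor, was thus present on both sides, with 10.6 ± 0.417 FPKM in SMC#2 and 20.2 ± 1.48 FPKM in Non-SMC#2.

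Granule genes followed. Of 20 tested, 18 were higher and 2 lower in SMC#2, with a median of 4.28. Chga, which encodes the granule matrix protein chromogranin A, had 239, 214 and 227 FPKM in SMC#2, against 0 FPKM in each library of Non-SMC#2. Ddc, the enzyme that makes dopamine and serotonin, had 215 ± 15.2 FPKM in SMC#2 and 0 FPKM in Non-SMC#2, and the prohormone Calca, which yields calcitonin and CGRP, had 50.6 ± 1.54 FPKM in SMC#2 and 0 to 0.0445 FPKM in Non-SMC#2. Both convertases that cut prohormones were high in SMC#2, with 60.6 ± 0.815 FPKM for Pcsk1 and 15.9 ± 1.14 FPKM for Pcsk2, and both were listed at 0 in Non-SMC#2. The exceptions were Cpe and Ptprn. Cpe, which encodes carboxypeptidase E, the enzyme that trims the cut peptides, had 107 ± 4.69 FPKM in SMC#2 and 144 ± 10.2 FPKM in Non-SMC#2, a difference that was 0.02 under quantile normalization, and Ptprn, a receptor-like granule membrane protein, had 8.62 ± 0.766 FPKM in SMC#2 and 24 ± 5.51 FPKM in Non-SMC#2. Non-SMC#2 thus held abundant RNA for 1 prohormone enzyme while the convertase genes were listed at 0.

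Of 35 synaptic vesicle genes tested, 32 were higher and 1 (Rab3d) was lower, with a median of 2.51. Snap25, part of the complex that fuses vesicles with the membrane, had 38.1, 41.6 and 40.5 FPKM in SMC#2, against 0.887, 0.796 and 0.867 FPKM in Non-SMC#2. Syp, the vesicle membrane protein used to diagnose SCLC, had 32, 29.9 and 29.3 FPKM in SMC#2, against 0.241, 0.216 and 0.351 FPKM in Non-SMC#2. Every SMC#2 library exceeded every Non-SMC#2 library for both genes. Cplx2, which clamps the fusion complex, had 88.9 ± 3.35 FPKM in SMC#2 and 0.0385 ± 0.0325 FPKM in Non-SMC#2. The chaperone Dnajc5 did not pass the test, with 29.6 ± 1.19 FPKM in SMC#2 and 32.8 ± 0.674 FPKM in Non-SMC#2. Among voltage-gated channels 26 of 27 were higher, with the same median, and the largest rises were those of the potassium channel Kcnc1 (17.7 ± 0.289 FPKM in SMC#2 and 0 FPKM in Non-SMC#2) and the calcium channel subunit Cacng4 (17.7 ± 2.6 FPKM in SMC#2 and 0 to 0.109 FPKM in Non-SMC#2). The single channel gene that fell was the calcium channel subunit Cacnb3, with 32.5 ± 1.42 FPKM in SMC#2 and 47.4 ± 7.16 FPKM in Non-SMC#2, and it did not pass under quantile normalization. All 12 potassium channel genes tested were higher in SMC#2. The 16 listed summed to only 5.39 to 7.61 FPKM in Non-SMC#2 libraries. Many could thus reach the level for testing only through SMC#2, so their shared direction was in part fixed by that filter.

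Axon and neurite genes were mixed. Of 36 tested, 22 were higher and 13 lower, with a median of 1.00. Genes of the neuronal cytoskeleton and RNA binding proteins led the rises. Stmn3, a microtubule destabilizer, had 143, 119 and 133 FPKM in SMC#2, against 0.0663, 0.0296 and 0 FPKM in Non-SMC#2, and Crmp1, which relays guidance signals to microtubules, had 76.9, 71.5 and 72.8 FPKM in SMC#2, against 0.0392, 0 and 0 FPKM in Non-SMC#2. Neither gene overlapped between the lines. The other non-SMC line kept Crmp1 at 6.64 ± 0.0716 FPKM, so its near absence was a feature of Non-SMC#2 among the 4 lines. The members that fell were 9 of the 18 guidance ligands and receptors tested (8 rose), among them Slit2 (0.0568 ± 0.0147 FPKM in SMC#2 and 17.5 ± 2.97 FPKM in Non-SMC#2), Efnb2 (2.91 ± 0.272 FPKM in SMC#2 and 50.7 ± 3.999 FPKM in Non-SMC#2) and Sema3c (10.7 ± 0.805 FPKM in SMC#2 and 69.1 ± 5.25 FPKM in Non-SMC#2), and 4 of the 18 tested genes of the cytoskeleton and RNA binding group (14 rose). Among these Tubb2b, a neuronal tubulin, had 3.09, 2.6 and 2.87 FPKM in SMC#2, against 47.9, 44.5 and 49.8 FPKM in Non-SMC#2, with SMC#2 also below SMC#1 (14.8 ± 1.73 FPKM) and Non-SMC#1 (52.5 ± 1.62 FPKM).

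Mesenchymal genes were the reverse of the neuroendocrine program. Of 26 mesenchymal structure genes 25 were lower in SMC#2, with a median log2 difference of -5.56, and of 18 mesenchymal transcription factors 15 were lower, 1 was higher (Snai3) and 2 did not pass the test. Zeb1, a repressor of epithelial genes, had 0.245, 0.165 and 0.162 FPKM in SMC#2, against 16.8, 19.99 and 18.1 FPKM in Non-SMC#2. Twist2, a factor of mesodermal cells, had 0 FPKM in each library of SMC#2, against 47.8, 40.6 and 48.1 FPKM in Non-SMC#2. SMC#2 was at or near 0 for both, so the lines were fully apart. Prrx1, a limb and connective tissue factor, was also lower in SMC#2, with 0, 0.0161 and 0 FPKM in SMC#2, against 5.23, 5.47 and 4.91 FPKM in Non-SMC#2, but its level in Non-SMC#2 was a small fraction of that in Non-SMC#1 (237 ± 4.07 FPKM). The 2 factors that did not pass, Tcf4 and Foxc1, were present in both lines, with 30.1 ± 1.06 FPKM in SMC#2 and 28.6 ± 3.11 FPKM in Non-SMC#2 for Tcf4. Cdh2, which encodes N-cadherin, was also well expressed on both sides, with 31.5 ± 1.01 FPKM in SMC#2 and 37.3 ± 2.17 FPKM in Non-SMC#2, a log2 difference of -0.24 that turned to 0.06 under quantile normalization and that did not pass when any 1 library other than Non-SMC#2 replicate 1 was left out.

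Of 57 extracellular matrix genes, 56 were lower in SMC#2 and 1 was higher, with a median log2 difference of -3.58. The summed level of the 63 listed genes was 131 to 142 FPKM in SMC#2 libraries and 8230 to 9230 FPKM in Non-SMC#2 libraries, where Spp1 alone had 3974 ± 670.4 FPKM. Collagen I chains had 0 to 0.0181 FPKM in SMC#2 and 193 ± 93.3 FPKM in Non-SMC#2 for Col1a1 and 0 FPKM in SMC#2 and 216 ± 17.1 FPKM in Non-SMC#2 for Col1a2. Fn1, fibronectin, had 1.86, 2.08 and 1.9 FPKM in SMC#2, against 313, 515 and 966 FPKM in Non-SMC#2. The SMC#2 libraries lay far below the Non-SMC#2 libraries. Serpinh1, the chaperone that collagens need for folding, had 0, 0.0117 and 0.0587 FPKM in SMC#2, against 155, 155 and 165 FPKM in Non-SMC#2. It was near 0 in Non-SMC#1 as well (0.051 ± 0.02003 FPKM), although that line expressed collagens, so Non-SMC#2 alone of the 4 lines had a high listed value. Whether the values near 0 are failed estimates was not tested. The exception was Col8a1, a short-chain collagen, which was higher in SMC#2 with 45.3, 46.1 and 43.8 FPKM in SMC#2, against 8.81, 7.81 and 7.18 FPKM in Non-SMC#2.

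Integrins and focal adhesion genes fell in SMC#2 in 32 of 36 cases and rose in 3, with a median of -2.24. Itga5, the fibronectin receptor chain, had 0.0196, 0.011 and 0.0137 FPKM in SMC#2, against 77.9, 94.6 and 126 FPKM in Non-SMC#2, and Itgb1, the shared beta chain, had 67.6, 60.9 and 65.8 FPKM in SMC#2, against 289, 315 and 281 FPKM in Non-SMC#2. Itgb1 thus kept a sizeable level in SMC#2. Itga4, which pairs with it on migrating blood cells, was high only in SMC#2, with 9.42, 10.1 and 11.3 FPKM in SMC#2, against 0 FPKM in each library of Non-SMC#2. Itga6, a laminin receptor chain of epithelial cells, did not pass the test, with 19.4 ± 1.29 FPKM in SMC#2 and 22.3 ± 1.88 FPKM in Non-SMC#2, whereas Non-SMC#1 had 0.52 ± 0.075 FPKM. Among membrane to actin linkers Msn, moesin, had 0 to 0.0252 FPKM in SMC#2 and 334 ± 23.6 FPKM in Non-SMC#2, while its relative Rdx, radixin, was higher in SMC#2 with 79.3 ± 3.71 FPKM in SMC#2 and 53.7 ± 9.19 FPKM in Non-SMC#2.

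Hippo pathway genes were lower in SMC#2 in 24 of 35 cases and higher in 4, and 22 of 24 YAP and TAZ target genes were lower with none higher. The study singled out Hippo genes on cells of this kind, so their direction is not independent evidence. Wwtr1, which encodes TAZ, had 0, 0.00509 and 0.0125 FPKM in SMC#2, against 48.7, 51 and 53.9 FPKM in Non-SMC#2. Yap1 had 1.1, 1.44 and 1.2 FPKM in SMC#2, against 30.5, 32.9 and 36.6 FPKM in Non-SMC#2. Both coactivators were low in each SMC#2 library and did not overlap, and their DNA binding partners differed among themselves. Tead2 (12.8 ± 0.548 FPKM in SMC#2 and 94 ± 4.8 FPKM in Non-SMC#2) and Tead4 (0 to 0.0192 FPKM in SMC#2 and 6.18 ± 1.09 FPKM in Non-SMC#2) fell, while Tead1, with 13.9 ± 1.34 FPKM in SMC#2 and 19.1 ± 6.18 FPKM in Non-SMC#2, did not pass the test at a log2 difference of -0.39 but passed at -0.63 without Non-SMC#2 replicate 1. The kinases were affected unequally, with Lats2 at 0.169 ± 0.0158 FPKM in SMC#2 and 11.2 ± 1.32 FPKM in Non-SMC#2 and Lats1 slightly higher in SMC#2 (16 ± 0.721 FPKM in SMC#2 and 11 ± 1.3 FPKM in Non-SMC#2). Of the targets, Cyr61, a secreted matricellular protein, had 0.125, 0.0657 and 0.148 FPKM in SMC#2, against 274, 267 and 340.1 FPKM in Non-SMC#2, and Ctgf, its relative, had 0 FPKM in each library of SMC#2, against 225, 216 and 252 FPKM in Non-SMC#2. Ankrd1, a nuclear cofactor used as a readout of YAP activity, had 0, 0 and 0.0195 FPKM in SMC#2, against 169.9, 124 and 106 FPKM in Non-SMC#2. No SMC#2 library came near a Non-SMC#2 library for these 3 genes.

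The TEAD factors bind the core GGAATG, here searched on both strands. It was found in the 250 bases before the start of 14.4% of 27025 mouse genes with a RefSeq promoter (GRCm38.p6), in 7 of 17 YAP and TAZ target genes (41.2%) and in 13 of 29 Hippo pathway genes (44.8%). The promoters of Cyr61 (Ccn1 in RefSeq, minus strand, chr3:145649986-145650235) and Ankrd1 (minus strand, chr19:36119845-36120094) are shown because these targets were among the farthest apart between the lines. Capitals mark the core, which reads CATTCC in Cyr61 because it lies on the other strand, and each sequence runs 5′ to 3′ toward the start.
Cyr61: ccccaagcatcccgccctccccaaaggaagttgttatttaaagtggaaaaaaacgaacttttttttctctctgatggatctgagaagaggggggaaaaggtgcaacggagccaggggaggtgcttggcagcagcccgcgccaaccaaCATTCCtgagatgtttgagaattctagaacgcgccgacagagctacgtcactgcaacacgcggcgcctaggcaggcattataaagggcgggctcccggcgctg
Ankrd1: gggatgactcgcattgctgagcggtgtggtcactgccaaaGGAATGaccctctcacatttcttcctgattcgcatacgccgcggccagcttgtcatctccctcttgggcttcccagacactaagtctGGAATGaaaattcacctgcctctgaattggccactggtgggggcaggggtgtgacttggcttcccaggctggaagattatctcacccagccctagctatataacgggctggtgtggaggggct
The cores begin at -103 in Cyr61 and at -210 and -123 in Ankrd1, counted back from the first base of the gene. A match is a description of the letters. Whether TEAD factors bind there in these cells was not tested.

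Pair 2 was set apart here because its non-SMC line was known to keep epithelial genes, so the levels of Non-SMC#2 beside Non-SMC#1 are a description with no test. Cdh1, which encodes E-cadherin, had 78.3, 75.3 and 71 FPKM in SMC#2, against 17, 19.2 and 20.2 FPKM in Non-SMC#2. In the other pair it had 41.8, 41.6 and 39.8 FPKM in SMC#1, against 0.124, 0.312 and 0.188 FPKM in Non-SMC#1. SMC#2 was higher in both comparisons of a pair, but Non-SMC#2 kept a level that Non-SMC#1 lacked, and the contrast between the lines of pair 2 was the smaller one, with a pair 2 minus pair 1 value of -3.18 on the log2 scale. Epcam, an epithelial adhesion protein, had 294, 260.5 and 266 FPKM in SMC#2, against 53.9, 41 and 41.6 FPKM in Non-SMC#2, and was at 0 to 0.0176 FPKM in Non-SMC#1. Its difference in pair 2 minus that in pair 1 was -5.06.

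**Figure D3:**
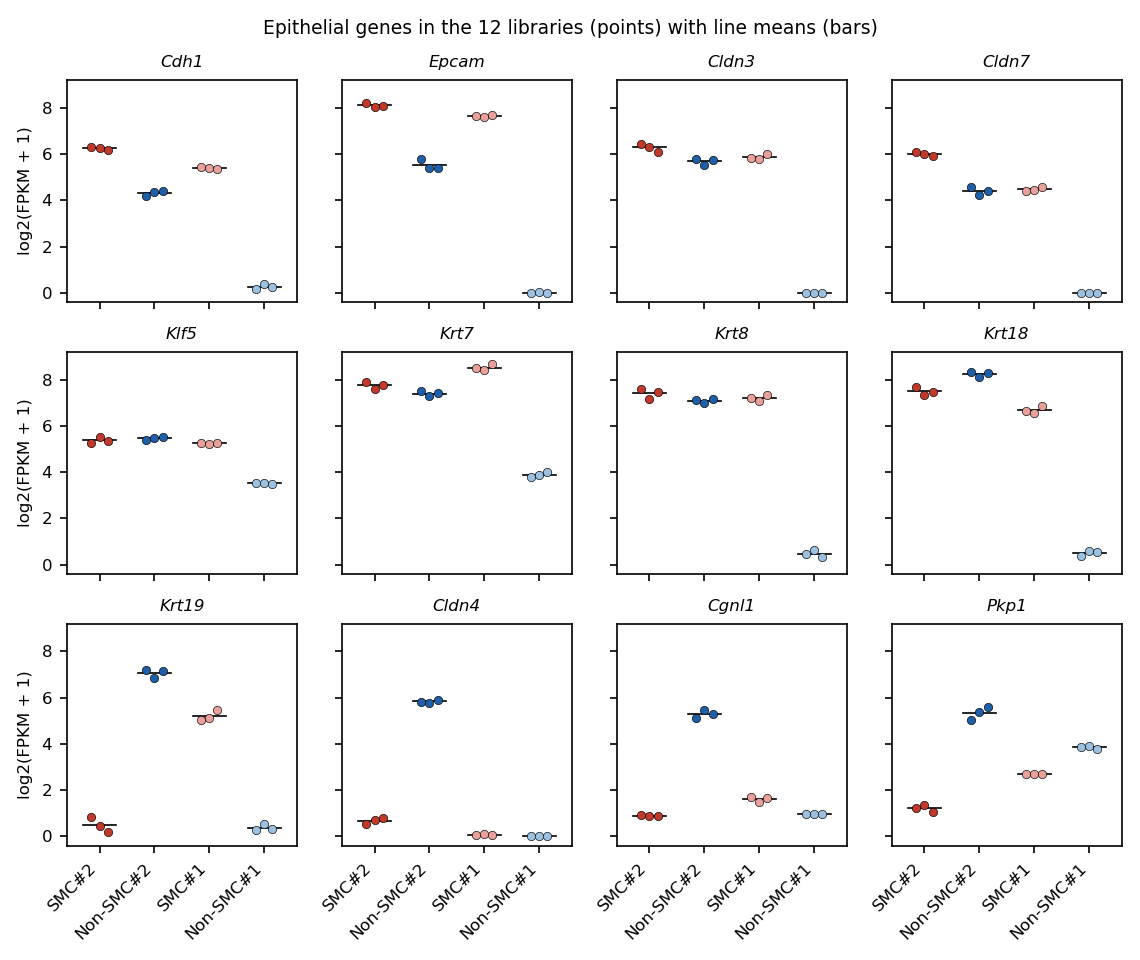
Each panel gives 1 gene, with the 3 libraries of SMC#2, Non-SMC#2, SMC#1 and Non-SMC#1 as points on a log2(FPKM + 1) axis and the line mean as a bar. Non-SMC#2 lies beside the SMC lines for Cldn3, Klf5, Krt7, Krt8 and Krt18, and below them for Cdh1 and Epcam. It lies below SMC#2 for Cldn7 and above SMC#2 for Krt19, Cldn4, Cgnl1 and Pkp1.

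Within pair 2, junction genes were divided. Of 35 tested, 19 were higher and 10 lower in SMC#2, with a median log2 difference of 0.59. Among claudins, which seal the tight junction, Cldn6 had 67.3 ± 6.19 FPKM in SMC#2 and 0.238 ± 0.11 FPKM in Non-SMC#2 and Cldn7 had 62.5 ± 3.72 FPKM in SMC#2 and 20.1 ± 2.57 FPKM in Non-SMC#2. Cldn3 was close between the lines, with 85.7, 79 and 67.6 FPKM in SMC#2, against 54.8, 45 and 53.2 FPKM in Non-SMC#2. The lines still did not overlap, by a log2 difference of 0.59 (SE 0.13, limma adjusted p = 0.00255). Cldn4 showed the converse, with 0.449, 0.619 and 0.717 FPKM in SMC#2, against 55.7, 53.4 and 59.2 FPKM in Non-SMC#2, and was at 0.0496 ± 0.0174 FPKM in SMC#1 and 0 to 0.0206 FPKM in Non-SMC#1. Cgnl1, paracingulin, a junction scaffold, was likewise high only in Non-SMC#2, with 0.903, 0.862 and 0.818 FPKM in SMC#2, against 33.8, 43.6 and 38.7 FPKM in Non-SMC#2, while its paralog Cgn, cingulin, was higher in SMC#2 with 64.2 ± 3.85 FPKM in SMC#2 and 4.25 ± 0.519 FPKM in Non-SMC#2. Scaffold and polarity genes shared by most epithelia, namely Pard3, Pard6a, Pard6b and Mpp5, did not pass the test, with log2 differences of -0.24, 0.19, -0.03 and -0.06. The catenins that hold cadherins to actin were lower in SMC#2 for Ctnna1 (65.5 ± 3.1 FPKM in SMC#2 and 177 ± 1.75 FPKM in Non-SMC#2) and Ctnnd1 (18.5 ± 0.836 FPKM in SMC#2 and 72.5 ± 8.88 FPKM in Non-SMC#2), whereas Ctnnb1 did not pass, with 235 ± 15 FPKM in SMC#2 and 211 ± 4.71 FPKM in Non-SMC#2.

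The simple keratin genes Krt7, Krt8 and Krt18 had high levels in both lines. Of 7 keratins tested, 1 was higher and 5 were lower in SMC#2, with a median of -1.41. Krt8, the type II keratin of simple epithelia, had 191, 144 and 176 FPKM in SMC#2, against 137, 127 and 141 FPKM in Non-SMC#2. The difference did not pass the test, at a log2 difference of 0.32 (SE 0.14, limma adjusted p = 0.0578), although it passed under 7 of the 14 alternatives described in the closing section. Its partner Krt18 was lower in SMC#2, with 201, 161 and 175 FPKM in SMC#2, against 319.9, 276 and 308 FPKM in Non-SMC#2. Krt7, a keratin of ducts and airways, was slightly higher in SMC#2 (214 ± 21.8 FPKM in SMC#2 and 167 ± 12.7 FPKM in Non-SMC#2), a call that was lost without SMC#2 replicate 1 or 3 or Non-SMC#2 replicate 2 or 3. Non-SMC#1 had 0.385 ± 0.138 FPKM of Krt8 and 0.426 ± 0.119 FPKM of Krt18, so that Non-SMC#2 resembled both SMC lines in these filaments while also holding vimentin. Krt19, a further simple keratin, was the exception, with 0.771, 0.368 and 0.135 FPKM in SMC#2, against 145, 114 and 140.3 FPKM in Non-SMC#2. SMC#1 had 36.3 ± 6.31 FPKM, which placed SMC#2 with Non-SMC#1 (0.294 ± 0.13 FPKM). The 10 listed keratins of stratified epithelia were lower as a sum, with 4.68 to 5.57 FPKM in SMC#2 libraries and 16.3 to 25.5 FPKM in Non-SMC#2 libraries. All 3 tested were lower in SMC#2. Krt13 and Krt16 made up a small part of the sums, with 0 FPKM in SMC#2 and 1.99 ± 0.358 FPKM in Non-SMC#2 for Krt13 and 0 FPKM in SMC#2 and 1.79 ± 0.226 FPKM in Non-SMC#2 for Krt16.

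Desmosome genes split in the same way. The desmosomal cadherins were higher in SMC#2, with 10.5 ± 0.516 FPKM in SMC#2 and 0.0795 ± 0.0151 FPKM in Non-SMC#2 for Dsc2 and 17.2 ± 0.303 FPKM in SMC#2 and 2.81 ± 0.208 FPKM in Non-SMC#2 for Dsg2, and so was the plaque protein Dsp, with 16.9 ± 1.17 FPKM in SMC#2 and 3.92 ± 0.668 FPKM in Non-SMC#2. The armadillo protein Pkp1 was lower, with 1.34, 1.54 and 1.09 FPKM in SMC#2, against 31.9, 40.2 and 47.4 FPKM in Non-SMC#2, as was Perp (1.59 ± 0.0998 FPKM in SMC#2 and 15 ± 2.28 FPKM in Non-SMC#2), a desmosome protein that is also a p53 target. Among epithelial regulators 18 of 26 were higher and 6 lower in SMC#2. Grhl2, which directs claudin and cadherin genes, had 17 ± 1.22 FPKM in SMC#2 and 1.69 ± 0.279 FPKM in Non-SMC#2, and Esrp1, an epithelial splicing factor, had 62.3 ± 1.8 FPKM in SMC#2 and 5.37 ± 0.542 FPKM in Non-SMC#2. Non-SMC#2 held these at a low but measurable level, whereas Non-SMC#1 had 0 to 0.0133 FPKM of Grhl2 and 0 FPKM of Esrp1. Klf5, a zinc finger factor of lung epithelium, did not pass, with 37.4, 44.8 and 39.3 FPKM in SMC#2, against 41.1, 43 and 45.1 FPKM in Non-SMC#2. The lines overlapped. Tfap2a, a factor of skin epithelium, was higher in Non-SMC#2, with 0.0396 ± 0.0175 FPKM in SMC#2 and 6.91 ± 1.53 FPKM in Non-SMC#2.

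Surface proteases also exchanged members. Tmprss2, a transmembrane serine protease, had 24.6 ± 1.38 FPKM in SMC#2 and 0.259 ± 0.0882 FPKM in Non-SMC#2, and its inhibitor gene Spint1 had 23.9 ± 1.49 FPKM in SMC#2 and 3.37 ± 0.642 FPKM in Non-SMC#2. Prss22, tryptase epsilon of the airway, had 0 FPKM in each library of SMC#2, against 26.3, 20.2 and 23.7 FPKM in Non-SMC#2, and Plau, urokinase, had 1.71, 1.84 and 1.08 FPKM in SMC#2, against 79.4, 73 and 79.4 FPKM in Non-SMC#2. For these 2 genes Non-SMC#2 was the high line in every library. Growth factors and receptors of epithelia were mostly lower in SMC#2, 16 of 19 with 3 higher. Axl, a receptor linked with mesenchymal carcinoma cells, had 0 to 0.00495 FPKM in SMC#2 and 112 ± 16.2 FPKM in Non-SMC#2, Met, the receptor of hepatocyte growth factor, had 0.392 ± 0.0361 FPKM in SMC#2 and 37.3 ± 3.7 FPKM in Non-SMC#2, and Areg, a ligand of the EGF receptor, had 0.821 ± 0.0526 FPKM in SMC#2 and 45.5 ± 7.31 FPKM in Non-SMC#2. The ligand of Met, Hgf, had 0 FPKM in each library of SMC#2, against 4.36, 6.55 and 4.9 FPKM in Non-SMC#2, so that receptor and ligand RNA were present in the same line. The 3 that rose were Fgfr2 (6.95 ± 0.127 FPKM in SMC#2 and 0.964 ± 0.162 FPKM in Non-SMC#2), Erbb3 (5.35 ± 0.915 FPKM in SMC#2 and 0.893 ± 0.284 FPKM in Non-SMC#2) and Tgfa (13.2 ± 1.17 FPKM in SMC#2 and 3.93 ± 0.791 FPKM in Non-SMC#2).

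To ask where pair 2 departed from pair 1, the difference within pair 2 minus the difference within pair 1 was tested over all 12 libraries. Of 13122 rows, 60.6% were called, with 2947 (22.5%) more positive and 5010 (38.2%) more negative in pair 2, and the median was -0.16. Among rows with at least 5 FPKM in the higher line, 506 were called in opposite directions in the pairs, of which 173 were higher and 333 lower in SMC#2. Krt19 had the most negative value, -11.41 (SE 0.23), a description only, since the pair was set apart for the epithelial genes that Non-SMC#2 keeps. Slc16a3, the lactate exporter MCT4, had the most positive one, 8.60 (SE 0.29, limma adjusted p = 4.26e-11), with 28, 29 and 22.6 FPKM in SMC#2, against 0.549, 0.66 and 0.735 FPKM in Non-SMC#2 and, in the other pair, 2.21, 1.36 and 4.07 FPKM in SMC#1, against 76, 79.9 and 77.9 FPKM in Non-SMC#1. Its direction was thus opposite in the pairs. Wfdc2, a secreted protease inhibitor of airway epithelium, was lower in SMC#2 with 1.41, 1.69 and 2.79 FPKM in SMC#2, against 588, 429 and 476 FPKM in Non-SMC#2, and had 44 ± 10.05 FPKM in SMC#1 and 22.4 ± 1.66 FPKM in Non-SMC#1. Nkx6-1, a factor of islet cells and motor neurons, was on in SMC#2 at 37.9 ± 1.93 FPKM and had 0 to 0.0178 FPKM in Non-SMC#2, and was at 0.294 ± 0.00993 FPKM in SMC#1 and 3.86 ± 0.261 FPKM in Non-SMC#1.

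The Hoxb cluster stood out on the Non-SMC#2 side. Hox genes encode the homeodomain factors that set position along the body axis, and several Hoxb genes are expressed in the developing lung. Of 27 Hox genes listed, 8 were tested, all of them Hoxb genes (Hoxb2 to Hoxb9) and all higher in SMC#2. Each reached the level for testing only through its SMC#2 libraries, so the shared direction was largely fixed by that filter. Hoxb7 had 55.2, 50.8 and 49 FPKM in SMC#2, against 0.254, 0.278 and 0.0374 FPKM in Non-SMC#2. Hoxb6 had 58.6, 58.2 and 52.6 FPKM in SMC#2, against 1.55, 1.19 and 0.953 FPKM in Non-SMC#2. The lines did not overlap for any of the 8 genes, whose means ranged over 8.90 to 56.5 FPKM in SMC#2 and 0.053 to 1.23 FPKM in Non-SMC#2. Both lines of pair 1 expressed the cluster, with means of 10.6 to 53.8 FPKM in SMC#1 and 6.60 to 30.3 FPKM in Non-SMC#1. Non-SMC#2 was below Non-SMC#1 in 8 of 8, where 25.8% of all rows were, and each of the 8 was more positive in pair 2 than in pair 1, by 1.87 (Hoxb4) to 4.61 (Hoxb8). The 8 genes lie side by side in 1 cluster, so they do not count as 8 separate cases against that share. The expressed neighbors did not share the pattern. Atp5g1, a subunit of ATP synthase on the Hoxb9 side, had 46.9 ± 4.34 FPKM in SMC#2 and 82.8 ± 18.3 FPKM in Non-SMC#2, and Snx11, an endosome protein on the other side, had 5.42 ± 0.223 FPKM in SMC#2 and 6.31 ± 0.584 FPKM in Non-SMC#2. Skap1, an adaptor gene between Hoxb1 and Snx11, was low in Non-SMC#2 too, with 12.1 ± 1.04 FPKM in SMC#2 and 0 to 0.038 FPKM in Non-SMC#2, but its pair 1 levels also fell on the non-SMC side (3.36 ± 0.0945 FPKM in SMC#1 and 0.161 ± 0.0729 FPKM in Non-SMC#1). Hoxb1 and Hoxb13, at the ends of the cluster, were at or near 0 in all lines. The cluster lies on chromosome 11, from Hoxb9 at chr11:96132644-96137907 to Hoxb2 at chr11:96212946-96215328 (mm9).

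**Figure D4:**
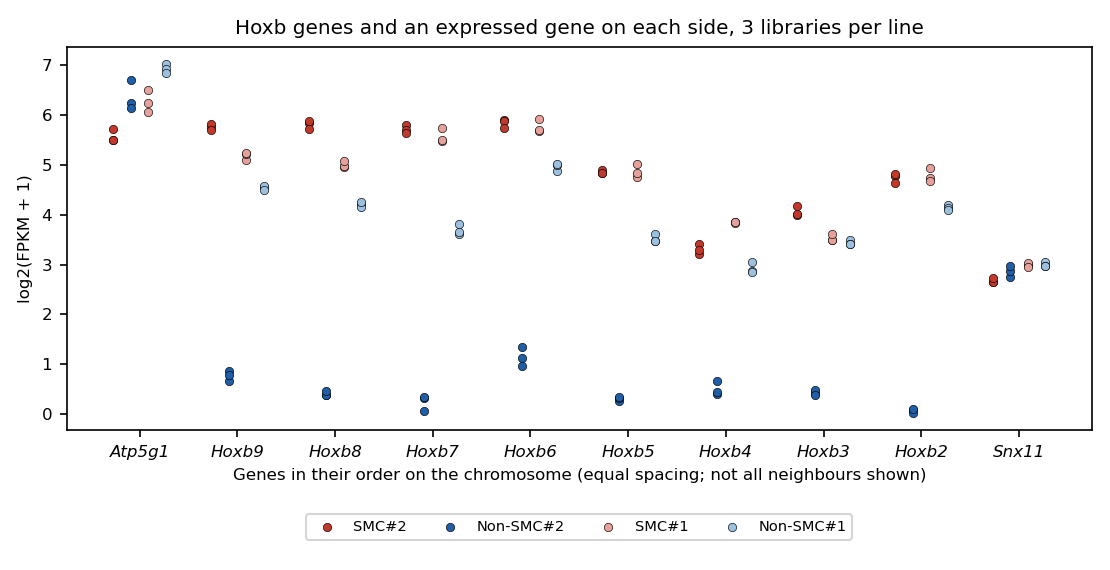
Hoxb9 to Hoxb2 and an expressed gene on each side (Atp5g1 and Snx11) are drawn in chromosome order with equal spacing; each point is 1 library of SMC#2, Non-SMC#2, SMC#1 or Non-SMC#1 on a log2(FPKM + 1) axis. The Non-SMC#2 libraries lie at the bottom for each of the 8 Hoxb genes (means of 0.053 to 1.23 FPKM), below all 9 other libraries, while the flanking genes are expressed in all 4 lines.

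The promoters of Hoxb8 and Hoxb4 are shown, the members with the largest and the smallest pair difference, with no motif marked. Both lie on the plus strand in GRCm38.p6, Hoxb8 at chr11:96281655-96281904 and Hoxb4 at chr11:96318017-96318266.
Hoxb8: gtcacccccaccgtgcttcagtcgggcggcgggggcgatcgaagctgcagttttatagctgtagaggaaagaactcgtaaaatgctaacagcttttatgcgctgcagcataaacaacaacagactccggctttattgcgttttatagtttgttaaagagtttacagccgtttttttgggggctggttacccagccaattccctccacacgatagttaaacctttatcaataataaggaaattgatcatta
Hoxb4: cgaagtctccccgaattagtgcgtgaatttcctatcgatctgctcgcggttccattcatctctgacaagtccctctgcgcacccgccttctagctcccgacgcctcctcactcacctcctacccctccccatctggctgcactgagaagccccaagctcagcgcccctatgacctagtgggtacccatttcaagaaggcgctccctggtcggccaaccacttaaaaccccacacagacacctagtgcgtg

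Genes that stood apart in 1 line of the 4 were listed, after the values were seen, as those whose lowest library reached 5 FPKM and 4 times the highest of the 9 other libraries, or the converse. SMC#2 had 82 such genes above and 28 below, and Non-SMC#2 had 147 above and 34 below. In SMC#2 they included Neurod1, the imprinted genes Ndn (138, 107 and 123 FPKM in SMC#2, against 2.005, 2.49 and 2.63 FPKM in Non-SMC#2) and Igf2, and the intestinal homeobox gene Cdx2. Igf2, a fetal growth factor, had 74.6, 82 and 67.8 FPKM in SMC#2, against 0.782, 0.968 and 1.01 FPKM in Non-SMC#2, and Cdx2 had 76.9, 71.8 and 69.1 FPKM in SMC#2, against 5.98, 5.09 and 7.24 FPKM in Non-SMC#2. No other line reached these levels, with 0.0216 ± 0.00755 FPKM in SMC#1 and 0 to 0.00916 FPKM in Non-SMC#1 for Igf2 and 7.07 ± 0.458 FPKM in SMC#1 and 0 FPKM in Non-SMC#1 for Cdx2. Ret, the receptor tyrosine kinase of endocrine and enteric nerve cells, had 35.4 ± 1.69 FPKM in SMC#2 and 1.87 ± 0.375 FPKM in Non-SMC#2. Genes apart on the low side in SMC#2 included Mid1, a ubiquitin ligase on microtubules (0.376 ± 0.0553 FPKM in SMC#2 and 48 ± 7.97 FPKM in Non-SMC#2), and Jak1, a kinase of cytokine receptors. Jak1 had 0.0476, 0.0667 and 0.0446 FPKM in SMC#2, against 25.4, 28.4 and 28.6 FPKM in Non-SMC#2, and was at 9.4 ± 0.153 FPKM in SMC#1, and Smo, the transducer of Hedgehog signals, had 0.292 ± 0.0963 FPKM in SMC#2 and 44.5 ± 6.59 FPKM in Non-SMC#2.

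In Non-SMC#2 the genes apart on the high side included secreted and epithelial products. Wfdc2 and Cldn4 were among them, as were Igfbp4, which binds insulin-like growth factors (0 to 0.0771 FPKM in SMC#2 and 561 ± 70.2 FPKM in Non-SMC#2), Msln, the mesothelial surface protein mesothelin (0 to 0.0125 FPKM in SMC#2 and 104 ± 4.18 FPKM in Non-SMC#2), and Sprr1a, an envelope protein of squamous cells (0 to 0.0602 FPKM in SMC#2 and 64.2 ± 19.2 FPKM in Non-SMC#2). Prl, the pituitary hormone prolactin, had 0 FPKM in each library of SMC#2, against 128, 97.9 and 91.5 FPKM in Non-SMC#2 and was at 0 FPKM in both lines of pair 1. Cyba, a subunit of the NADPH oxidase, had 0 FPKM in each library of SMC#2, against 183, 129 and 139 FPKM in Non-SMC#2. Each of these was high in all 3 Non-SMC#2 libraries. Hmga2, a chromatin protein of embryonic cells, had 0 to 0.0103 FPKM in SMC#2 and 69.1 ± 0.515 FPKM in Non-SMC#2. On the low side, beside the Hoxb genes, were Ptn, a neurite growth factor (41.8 ± 2.28 FPKM in SMC#2 and 2.82 ± 0.573 FPKM in Non-SMC#2) and Aplp1, a relative of the amyloid precursor (34.9 ± 2.45 FPKM in SMC#2 and 0.212 ± 0.0774 FPKM in Non-SMC#2), both of which Non-SMC#1 expressed, with 99.9 ± 3.69 FPKM for Ptn and 27.2 ± 1.06 FPKM for Aplp1.

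The position of genes apart in SMC#2 was uneven. Among 10527 genes with at least 5 FPKM in 1 or more lines, 12.2% had all SMC#2 libraries above the 9 others. Along chromosome 3 (mm9) all of 20 consecutive genes from Them4 to Vps72 did, and so did a run of 30 genes from Them4 to Fam63a (chr3:94114054-95100086). From Them4 to Phtf1 (chr3:94114054-103811414), a stretch chosen after the values were seen, 87 of 100 genes were above all other libraries, against 66 of 432 genes (15.3%) on the rest of the chromosome and 9 of the 40 genes just before Them4. The median log2 difference over the stretch was 1.28 against Non-SMC#2, 1.63 against SMC#1 and 1.36 against Non-SMC#1, and over the rest of the chromosome it was -0.46, 0.06 and -0.26 against the same lines. Anp32e, a histone chaperone, had 441, 417 and 431 FPKM in SMC#2, against 89.96, 75.5 and 68.2 FPKM in Non-SMC#2, and Setdb1, a histone H3 methyltransferase, had 107, 107 and 107 FPKM in SMC#2, against 17.7, 21 and 20.5 FPKM in Non-SMC#2. Pogz, a zinc finger gene, had 53.2 ± 1.94 FPKM in SMC#2 and 9.06 ± 2.55 FPKM in Non-SMC#2, and Prpf3, a splicing factor gene, had 115 ± 4.9 FPKM in SMC#2 and 25.7 ± 2.06 FPKM in Non-SMC#2. Each was about as low in the lines of pair 1, with 24.3 ± 1.36 FPKM in SMC#1 and 20.2 ± 0.267 FPKM in Non-SMC#1 for Setdb1. Where the stretch begins was not settled. Ints3 and Chtop, which lie before Them4, also had all SMC#2 libraries above the 9 others, among the 9 of 40 genes counted there. S100a10, the expressed gene just before Them4, was near 0 in SMC#2 and also low in SMC#1 (mean of 3.01 FPKM, beside 802 FPKM in Non-SMC#1). It thus followed the SMC side of both pairs and cannot mark an edge. Them4 itself, a thioesterase gene, had 11.6, 11 and 11 FPKM in SMC#2, against 5.03, 3.45 and 3.57 FPKM in Non-SMC#2. Beyond Phtf1 the share above declined, to 17 of the 40 genes after it. The synaptic vesicle gene Sv2a and the junction gene Cgn of the lists above lie in this stretch.

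**Figure D5:**
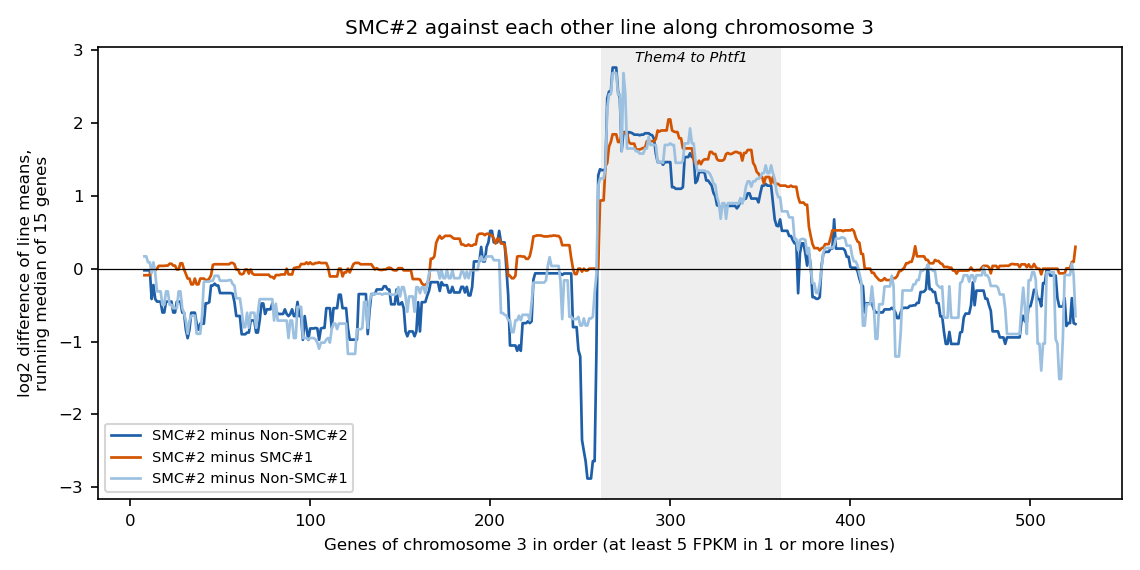
Genes of chromosome 3 with at least 5 FPKM in 1 or more lines are placed in order along the horizontal axis; lines give the running median, over 15 genes, of the log2 difference of SMC#2 from Non-SMC#2, SMC#1 and Non-SMC#1. All 3 lines rise near Them4 and stay above 0 through the shaded stretch to Phtf1, where the medians are 1.28, 1.63 and 1.36, and return toward 0 after it.

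A shorter group lies on chromosome 4 (mm9), where E2f2, Id3, Zfp46, Stpg1, Grhl3 and Rpl11 were highest in SMC#2 among the 4 lines, with other neighbors interspersed that were not. Asap3, between E2f2 and Zfp46, was also highest in SMC#2, with means of 8.27 FPKM in SMC#2 and 0.871 FPKM in Non-SMC#2. Fuca1, between Grhl3 and Rpl11, was not, with means of 5.63 FPKM in SMC#2 and 10.8 FPKM in Non-SMC#2. Stpg1 had 46 ± 3.47 FPKM in SMC#2 and 0 to 0.0336 FPKM in Non-SMC#2 and Zfp46 had 156 ± 6.03 FPKM in SMC#2 and 3.96 ± 0.469 FPKM in Non-SMC#2. Srrm1, which lies before the group between Clic4 and Rcan3, had 68 ± 3.81 FPKM in SMC#2 and 54.1 ± 11.3 FPKM in Non-SMC#2. Rpl11 has processed copies that may share its reads, and its level is uncertain. On the Non-SMC#2 side, 16 of 20 consecutive genes on chromosome 5 from Grsf1 to Sdad1 lay above all 9 other libraries, where 14.9% of all genes did, and 14 of 20 on chromosome X from Alg13 to Tspyl2 lay below, where 10.1% did. The chromosome 5 window holds the growth factor genes Areg and Ereg and the chemokine genes Cxcl1 and Cxcl5. In SMC#2, 15 of 20 genes on chromosome 8 from Agpat6 to Hook3 lay below all other libraries, where 21.2% did. These windows were the extremes of all windows of 20 genes, and no test was made of them.

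Signaling pathways were mixed. In the Notch pathway, which holds back neuroendocrine fate, 9 of 21 genes were higher and 11 lower in SMC#2, beside 36.6% and 41.3% of all rows. Of 6 Notch ligands tested 4 were higher and 2 lower. Among ligands, Dll3, which inhibits Notch within the cell and is an SCLC surface antigen, had 17.2, 17.1 and 14.6 FPKM in SMC#2, against 0, 0.0127 and 0.0188 FPKM in Non-SMC#2, and Jag2 had 47.6 ± 2.16 FPKM in SMC#2 and 3.95 ± 0.903 FPKM in Non-SMC#2. Both were higher in every SMC#2 library. The receptors fell, with 0.0554 ± 0.0158 FPKM in SMC#2 and 7.06 ± 3.37 FPKM in Non-SMC#2 for Notch1 and 1.33 ± 0.132 FPKM in SMC#2 and 18.3 ± 6.17 FPKM in Non-SMC#2 for Notch2, as did the target Hes1 (7.12 ± 0.783 FPKM in SMC#2 and 47.7 ± 10.3 FPKM in Non-SMC#2), a repressor of neural differentiation. Among modifiers, Mfng, a glycosyltransferase that alters ligand choice, had 83.8, 70.6 and 75.1 FPKM in SMC#2, against 0.0347, 0 and 0.046 FPKM in Non-SMC#2.

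Of TGF-beta and BMP genes 10 of 41 were higher and 26 lower. Ligands were mostly lower, led by Inhba (0 FPKM in SMC#2 and 78.6 ± 8.76 FPKM in Non-SMC#2) and Tgfb1 (0.239 ± 0.0892 FPKM in SMC#2 and 67.1 ± 24.5 FPKM in Non-SMC#2), and so were the receptor Tgfbr2 (0.05999, 0.0908 and 0.0885 FPKM in SMC#2, against 32.3, 39.1 and 43.5 FPKM in Non-SMC#2) and the effector Smad3 (0.482 ± 0.0167 FPKM in SMC#2 and 24.3 ± 4.79 FPKM in Non-SMC#2). Tgfbr2 and Smad3 were thus both near 0 in SMC#2. The receptors as a group went both ways, with 3 of 9 higher, 4 lower and a median log2 difference of 0.16. The BMP targets of the Id family differed among themselves, and Id3 lies in the chromosome 4 group described above. Id3, an inhibitor of helix-loop-helix factors, had 533, 491 and 492 FPKM in SMC#2, against 82.3, 59.4 and 76.2 FPKM in Non-SMC#2, and Id4 had 85.3 ± 14.1 FPKM in SMC#2 and 0.417 ± 0.167 FPKM in Non-SMC#2, while Id1 did not pass the test, with 138 ± 12.3 FPKM in SMC#2 and 112 ± 23.1 FPKM in Non-SMC#2 and a log2 difference of 0.31 that passed at 0.47 without Non-SMC#2 replicate 1. In pair 1 Id3 was lower in SMC#1, with 69.9 ± 5.34 FPKM in SMC#1 and 155 ± 5.25 FPKM in Non-SMC#1, and the pairs differed by 3.94 (SE 0.16, limma adjusted p = 2.50e-10).

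WNT pathway genes went both ways. Of 10 ligands tested 3 were higher and 7 lower in SMC#2. Wnt10a, a ligand of skin and tooth epithelium, had 0.0163, 0 and 0 FPKM in SMC#2, against 46.9, 43.9 and 57.8 FPKM in Non-SMC#2, and Wnt7b, a ligand of lung epithelium, had 0.0413 ± 0.0259 FPKM in SMC#2 and 32.4 ± 4.25 FPKM in Non-SMC#2. Neither reached such a level in Non-SMC#1 (3.56 ± 0.35 FPKM and 1.02 ± 0.077 FPKM). Effectors and inhibitors were even, with 5 of 14 higher and 5 lower. Axin2, a feedback inhibitor induced by beta-catenin, was higher in SMC#2 with 14.1, 15.9 and 14.2 FPKM in SMC#2, against 0.17, 0.253 and 0.339 FPKM in Non-SMC#2, as was Nkd1, another inhibitor (8.02 ± 0.576 FPKM in SMC#2 and 0 to 0.00613 FPKM in Non-SMC#2), while the transcription factors Tcf7 (0.388 ± 0.0611 FPKM in SMC#2 and 10.9 ± 3.36 FPKM in Non-SMC#2) and Lef1 (0.348 ± 0.0348 FPKM in SMC#2 and 6.26 ± 1.12 FPKM in Non-SMC#2) were lower. Of frizzled receptors, Fzd3 was higher in SMC#2 (8.09 ± 0.589 FPKM in SMC#2 and 1.002 ± 0.209 FPKM in Non-SMC#2) and Fzd2 (0 to 0.00841 FPKM in SMC#2 and 24.8 ± 1.02 FPKM in Non-SMC#2), Fzd7 (0.165 ± 0.0684 FPKM in SMC#2 and 13.9 ± 1.06 FPKM in Non-SMC#2) and Fzd1 (0.924 ± 0.134 FPKM in SMC#2 and 19.6 ± 1.97 FPKM in Non-SMC#2) were lower.

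Immune genes were lower in SMC#2. Of 48 cytokine and inflammatory genes 46 were lower and 1 (Cxcr4) was higher, with a median log2 difference of -2.71. Ccl2, a monocyte attractant, had 0 FPKM in each library of SMC#2, against 54.8, 39.3 and 37 FPKM in Non-SMC#2, Csf1, the macrophage growth factor, had 2.04 ± 0.354 FPKM in SMC#2 and 97 ± 17.2 FPKM in Non-SMC#2, and Il33, an alarmin, had 0 FPKM in SMC#2 and 37 ± 2.45 FPKM in Non-SMC#2. Ptgs2, cyclooxygenase 2, had 0 to 0.0058 FPKM in SMC#2 and 52.8 ± 3.06 FPKM in Non-SMC#2. Cxcr4, a chemokine receptor known for its role in metastasis, had 2.8, 2.28 and 2.98 FPKM in SMC#2, against 0.123, 0.111 and 0.233 FPKM in Non-SMC#2. Its SMC#2 libraries were above all Non-SMC#2 libraries at a low level. Antigen presentation genes fell in 14 of 16 cases. B2m, the light chain of MHC class I, had 25.3, 18.9 and 22.1 FPKM in SMC#2, against 461, 361 and 354 FPKM in Non-SMC#2, while the proteasome activator Psme1 was the 1 member called higher (97.4 ± 8.85 FPKM in SMC#2 and 77.4 ± 10.8 FPKM in Non-SMC#2), a call lost when any 1 library other than Non-SMC#2 replicate 1 was left out. MHC heavy chain genes are close copies of each other, and their split of reads is uncertain. Of 30 interferon response genes 21 were lower and 6 higher. Ifitm3, an antiviral membrane protein, had 20.2 ± 2.54 FPKM in SMC#2 and 207 ± 30.9 FPKM in Non-SMC#2, while Tmem173, which encodes the DNA sensing adaptor STING, was higher in SMC#2 with 11.8 ± 0.926 FPKM in SMC#2 and 4.62 ± 0.106 FPKM in Non-SMC#2. The leukocyte markers given above stayed low, with 13 markers summing to 2.86 to 3.57 FPKM in SMC#2 libraries and 15.2 to 18.6 FPKM in Non-SMC#2 libraries, and their part in these differences was not tested.

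Cell cycle genes gave no common direction. Of 53 tested 18 were higher, 13 lower and 22 did not pass, a smaller share called than the 77.9% over all rows. Under quantile normalization the counts were 28 higher and 8 lower. Top2a, a topoisomerase of dividing cells, had 166 ± 1.44 FPKM in SMC#2 and 127 ± 12.2 FPKM in Non-SMC#2, a call that was lost without SMC#2 replicate 3, and the mitotic kinase Cdk1, which did not pass, had 52.6 ± 5.29 FPKM in SMC#2 and 44.2 ± 6.75 FPKM in Non-SMC#2. The large differences lay in the G1 regulators. Ccnd1, cyclin D1, had 0.289, 0.294 and 0.336 FPKM in SMC#2, against 182, 184 and 181 FPKM in Non-SMC#2, and Cdk6, its kinase, had 0 FPKM in each library of SMC#2, against 19.4, 25.9 and 22.6 FPKM in Non-SMC#2. The other D cyclins were lower as well, with 0 FPKM in SMC#2 and 12.2 ± 1.03 FPKM in Non-SMC#2 for Ccnd2 and 11.2 ± 0.7001 FPKM in SMC#2 and 50.9 ± 3.88 FPKM in Non-SMC#2 for Ccnd3. Ccne2, a cyclin of S phase entry, was higher in SMC#2 with 70.2 ± 7.07 FPKM in SMC#2 and 8.59 ± 1.87 FPKM in Non-SMC#2. Inhibitors went both ways, with 23.7 ± 1.44 FPKM in SMC#2 and 0.899 ± 0.195 FPKM in Non-SMC#2 for Cdkn1c (p57) and 0.831 ± 0.25 FPKM in SMC#2 and 95.7 ± 17.2 FPKM in Non-SMC#2 for Cdkn2b (p15). Cdkn2a, p16 and p19, did not pass, with 129 ± 9.95 FPKM in SMC#2 and 152 ± 31.2 FPKM in Non-SMC#2.

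Of the MYC family, Mycl and Myc marked opposite lines. Myc had 3.79, 4.19 and 3.11 FPKM in SMC#2, against 75, 82 and 98.9 FPKM in Non-SMC#2, a log2 difference of -4.20, beside the difference of 9.79 for Mycl. Mycn was at 0.878 ± 0.122 FPKM in SMC#2 and 0.657 ± 0.225 FPKM in Non-SMC#2. The dimer partner Max did not pass the test, with 32.2 ± 1.08 FPKM in SMC#2 and 31 ± 1.7 FPKM in Non-SMC#2, and the competing dimer genes Mxi1, Mxd1, Mxd3, Mnt and Mga were all higher in SMC#2, by log2 differences of 0.87 (Mnt) to 1.54 (Mxi1).

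SWI/SNF chromatin remodeling subunits were higher in SMC#2 in 17 of 30 cases, against 36.6% of all rows, and lower in 5, with a median log2 difference of 0.34. The study named this complex on these cells, so the direction is not independent evidence. The ATPase genes went apart. Smarca4, which encodes BRG1, had 73.1, 75.3 and 69.4 FPKM in SMC#2, against 41.8, 47.1 and 61.4 FPKM in Non-SMC#2, a log2 difference of 0.54 (SE 0.14, limma adjusted p = 0.00791). The alternative ATPase gene Smarca2 had 6.88, 8.28 and 7.89 FPKM in SMC#2, against 20.2, 14.7 and 13 FPKM in Non-SMC#2. Every SMC#2 library was above for the first and below for the second. Subunit genes known from nerve and blood cells rose, with 10.4 ± 0.107 FPKM in SMC#2 and 0 FPKM in Non-SMC#2 for Bcl11a and 54.8 ± 1.45 FPKM in SMC#2 and 8.24 ± 0.806 FPKM in Non-SMC#2 for Bcl7a, while Smarcd3, a subunit of heart and muscle, fell with 1.64 ± 0.347 FPKM in SMC#2 and 21.2 ± 0.77 FPKM in Non-SMC#2. The core subunit Smarcb1 did not pass, with 53.5 ± 2.21 FPKM in SMC#2 and 50.04 ± 7.39 FPKM in Non-SMC#2. In pair 1 Bcl11a was at 0 FPKM in both lines, so of the 4 lines SMC#2 alone had a value above 0.

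Metabolic genes were mostly lower. Of 26 glycolysis and hypoxia genes 16 were lower and 6 higher in SMC#2. Ldha, lactate dehydrogenase, had 297 ± 21.6 FPKM in SMC#2 and 655 ± 85.9 FPKM in Non-SMC#2, Hk2, the inducible hexokinase, had 3.73 ± 0.913 FPKM in SMC#2 and 22.6 ± 0.556 FPKM in Non-SMC#2, and Pfkm, the muscle phosphofructokinase, had 0.654 ± 0.0949 FPKM in SMC#2 and 27.9 ± 3.49 FPKM in Non-SMC#2. SMC#2 was the low line for Pfkm among all 4, with 16.9 ± 1.52 FPKM in SMC#1 and 35.8 ± 0.591 FPKM in Non-SMC#1. Glutathione and xenobiotic genes were lower in 17 of 24 cases and higher in 4. Gpx2, the gut glutathione peroxidase, was among those higher, with 126, 94.2 and 112 FPKM in SMC#2, against 0.328, 0.488 and 0.289 FPKM in Non-SMC#2, as was Aldh1a1, a retinal dehydrogenase (7.85 ± 0.944 FPKM in SMC#2 and 0.419 ± 0.076 FPKM in Non-SMC#2), whereas Gsta4, a glutathione transferase, had 0.174, 0.183 and 0.409 FPKM in SMC#2, against 134, 93.4 and 106 FPKM in Non-SMC#2, and Aldh3a1, a corneal and airway aldehyde dehydrogenase, had 0.169 ± 0.0917 FPKM in SMC#2 and 66.1 ± 8.49 FPKM in Non-SMC#2. Both detoxifying genes were on in every Non-SMC#2 library and near 0 in SMC#2. Cholesterol synthesis genes showed no common direction, with 6 of 20 higher, 7 lower and a median of -0.02.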

How the data were processed

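RNA sequencing of total RNA was deposited as 1 table of 24458 gene rows with values in FPKM, which the authors made from 150 bp paired-end reads of a NovaSeq instrument with no further scaling stated. The submitters' notes name STAR 2.6.1b, DESeq2 and mm10. The tool that gave the FPKM and the strand setting are not given in the sources used here, so overlapping and antisense genes cannot be separated. Row positions matched mm9 and are printed as mm9, and promoters come from RefSeq (GRCm38.p6). Without counts, depth was estimated from the spacing of low values, and no counting interval is given.

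Values were transformed to log2(FPKM + 1), which understates changes of low genes, and fitted with limma 3.58.1 (trend and robust options, R 4.3.3), two-sided, with Benjamini-Hochberg adjustment over all 12519 rows that reached 1 FPKM in 3 or more of the 6 libraries. Pair 2 minus pair 1 was fitted over 13122 rows and 12 libraries. The script was tested on simulated data. A gene was called at an adjusted p under 0.05. The count test of the study was not run, since FPKM are not counts. Rows sharing a symbol (785) were left out of list counts. Alternatives were another pseudocount (0.1 FPKM), other filters, median-ratio scaling, quantile normalization, limma without its options, a fit over all 12 libraries, a replicate block and leaving out each library.

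The gene lists, the members and the tests were chosen with earlier results of these data known. Of 260 genes named, 148 follow a rule (genes named in advance, the 12 largest differences per direction, the 10 largest pair differences per direction and up to 3 members per list and direction, all with at least 5 FPKM), and 112 were chosen after their values were seen. Some genes that the rule picks are not reported here.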

Additional observations from a re-analysis of the deposited data

Results flagged for a closer look

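The difference between SMC#2 and Non-SMC#2 was not the difference between SMC#1 and Non-SMC#1 in 7957 of 13122 rows (60.6%) by a limma test of the difference of the pairs. The cause was not tested, and each pair is 1 line against 1 line.

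The rows listed next had pair differences among the largest of those called in pair 2 with at least 5 FPKM, given as pair 2 minus pair 1 on the log2 scale. On the positive side these were Slc16a3 (8.60), Nkx6-1 (7.18), Serpinb1a (6.48), Tshz3 (6.32), Mxra7 (5.52), Mpped2 (5.39), Stpg1 (5.35), Igf2 (5.28), Gdpd3 (5.27) and Prrx1 (5.26). Serpinb1a, an inhibitor of neutrophil proteases, had 5.72 ± 0.35 FPKM in SMC#2 and 3.3 ± 0.559 FPKM in Non-SMC#2, and 0 to 0.0508 FPKM in SMC#1 and 56.9 ± 2.46 FPKM in Non-SMC#1. Tshz3, a zinc finger factor, had 9.53 ± 0.562 FPKM in SMC#2 and 0 to 0.0365 FPKM in Non-SMC#2, and 0.0225 ± 0.00965 FPKM in SMC#1 and 6.9 ± 0.352 FPKM in Non-SMC#1. Mpped2, a phosphodiesterase gene, had 7.1 ± 0.879 FPKM in SMC#2 and 0 to 0.0127 FPKM in Non-SMC#2, and 0.776 ± 0.0978 FPKM in SMC#1 and 8.24 ± 0.53 FPKM in Non-SMC#1. Prrx1 was lower on the SMC side in both pairs, more so in pair 1, with 0 to 0.00897 FPKM in SMC#1 and 237 ± 4.07 FPKM in Non-SMC#1.

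On the negative side stood Krt19 (-11.41), Wfdc2 (-8.33), Eya2 (-7.93), Serpinh1 (-7.32), Cyba (-7.29), Krt18 (-6.93), Tinagl1 (-6.80), Prl (-6.73) and Mid1 (-6.51). Krt19, Krt18 and Wfdc2 are epithelial genes, for which the pair was set apart, so their values are a description with no test. Eya2, a phosphatase that acts with homeodomain factors, had 0.0352 ± 0.0167 FPKM in SMC#2 and 26 ± 3.92 FPKM in Non-SMC#2, and 8.42 ± 0.557 FPKM in SMC#1 and 0 FPKM in Non-SMC#1. Tinagl1, a secreted basement membrane protein, had 0.253 ± 0.0951 FPKM in SMC#2 and 113 ± 9.6 FPKM in Non-SMC#2, and 0.656 ± 0.213 FPKM in SMC#1 and 0.341 ± 0.0556 FPKM in Non-SMC#1.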

How the results depend on the processing

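The counts of genes called higher and lower in SMC#2 and of genes called different between the pairs were recomputed under 14 alternatives (no-filter and joint-fit settings were not made for the pair difference). Those higher stayed within 1.5 times of 4584 except with rows of a mean of at least 5 FPKM (2772, beside 3880 lower, of 8911 rows), and those different between the pairs except in the same setting (5072). That setting tested fewer rows, but the share of calls that were higher also moved, to 41.7%, and the cause was not tested. Leaving out 1 library at a time gave 4171 to 4793 genes higher, 4751 to 5290 lower and 7513 to 8550 different between the pairs. Quantile normalization moved the median of all rows to 0.080, beside -0.065 as reported, with 5363 higher (53.9% of calls, beside 47%) and 4593 lower, and median-ratio scaling moved it to -0.023. Same-numbered replicates did not pair (correlations of their deviations 0.288, 0.255 and -0.284), and a fit with the replicate number as a block gave 4595 higher, 5189 lower and 7805 different between the pairs.

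Of 252 named genes with a test, 227 kept their direction and side of the threshold under every alternative that tested them. Under quantile normalization 4 changed sign: Cdh2 (0.06), Cdkn2a (0.24), Cpe (0.02) and Grsf1 (0.22). Of named genes that did not pass the test, Krt8, Cdk1, Id1, Ctnnb1, Max, Smarcb1, Srrm1 and Tcf4 passed as higher under quantile normalization, and Krt8, Cdk1, Id1 and Pard6a as higher and Itga6, Pard3, Snx11 and Tead1 as lower without Non-SMC#2 replicate 1. The cause was not tested.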

Other observations

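Stress and immediate early genes, not described above, were mostly lower in SMC#2. Of 16 AP-1 and immediate early genes 12 were lower and 3 higher, with a median log2 difference of -1.21 against -0.07 over all rows with a symbol of their own. Fosl1, an AP-1 factor of mesenchymal carcinoma cells, had at most 0.0189 FPKM in an SMC#2 library, against 19.7, 26.5 and 40.7 FPKM in Non-SMC#2, and Junb had 14.1 ± 1.86 FPKM in SMC#2 and 198 ± 3.65 FPKM in Non-SMC#2, while Fos and Jun were slightly higher in SMC#2 (a call lost for Fos without SMC#2 replicate 1), with 2.91 ± 0.802 FPKM in SMC#2 and 1.68 ± 0.199 FPKM in Non-SMC#2 for Fos and 34 ± 1.5 FPKM in SMC#2 and 24.8 ± 1.32 FPKM in Non-SMC#2 for Jun. Of 11 heat shock and stress genes 9 were lower and none higher. Hspa5, the chaperone of the endoplasmic reticulum, had 104 ± 5.81 FPKM in SMC#2 and 306 ± 40.9 FPKM in Non-SMC#2, and Hspb1 had 0 to 0.0478 FPKM in SMC#2 and 10.1 ± 0.936 FPKM in Non-SMC#2.

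The p53 target list gave 5 of 15 higher and 7 lower in SMC#2, close to the 36.6% and 41.3% over all rows. Cdkn1a (p21) had 35.1, 40.6 and 28.5 FPKM in SMC#2, against 7.58, 7.25 and 7.13 FPKM in Non-SMC#2, and Mdm2, which degrades p53, had 27.5 ± 0.667 FPKM in SMC#2 and 13.8 ± 0.757 FPKM in Non-SMC#2, both higher in SMC#2. Fas, a death receptor, had 0 FPKM in SMC#2 and 12.5 ± 2.41 FPKM in Non-SMC#2, and Phlda3 had 6.08 ± 0.26 FPKM in SMC#2 and 69.96 ± 6.41 FPKM in Non-SMC#2, both lower.

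Markers of other cell types were uneven within their lists. Of 5 alveolar type 1 markers tested, 3 were higher and 2 lower in SMC#2. Aqp5, a water channel of alveolar type 1 and gland cells, had 0.0875, 0.11 and 0.138 FPKM in SMC#2, against 31.8, 23.4 and 27 FPKM in Non-SMC#2, and Emp2, a membrane protein of type 1 and other epithelial cells, had 5.61 ± 0.321 FPKM in SMC#2 and 62.3 ± 5.37 FPKM in Non-SMC#2, while the type 1 markers Ager and Hopx had 2.22 ± 0.13 FPKM in SMC#2 and 0.81 ± 0.182 FPKM in Non-SMC#2 and 2.18 ± 0.426 FPKM in SMC#2 and 1.2 ± 0.426 FPKM in Non-SMC#2. Vwf, the clotting factor of endothelium, had 15.6, 17.9 and 14.4 FPKM in SMC#2, against 0.012, 0.00541 and 0.016 FPKM in Non-SMC#2, while the endothelial genes Cdh5 and Pecam1 had 0 to 0.0072 FPKM in SMC#2 and 0.0645 ± 0.0411 FPKM in Non-SMC#2 and 0.0797 ± 0.0299 FPKM in SMC#2 and 0.0295 ± 0.0154 FPKM in Non-SMC#2.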
